A study of Homo sapiens with 12 samples.

Results

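The genes described here encode the translation initiation factors (eIF1 to eIF6) and the translation elongation factors (eEF1 and eEF2), with the enzymes that carry their symbols. They were taken by symbol, as every gene whose name starts with EIF and a digit 1 to 6 or with EEF and 1 or 2, leaving out symbols that end in P and digits. The rule found 69 of 58083 genes, and no measured value entered it. It left out 139 symbols, of which 136 are pseudogene names and 3 are the eIF4E-binding proteins EIF4EBP1, EIF4EBP2 and EIF4EBP3. Of the 69 genes, 60 had a geometric mean of at least 1 FPKM (fragments per length of transcript and size of library) at each time point and are called expressed here. Another 5 were listed at 0 in both conditions, EIF1AY among them.

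The series paired a pull-down of G-quadruplex structures with poly(A) RNA sequencing in HEK 293T cells, a transformed human line derived from embryonic kidney. PDP, named here as the labels give it, was applied at 1 µM for 3 h, 24 h or 72 h, and the control received the solvent DMSO and was labelled 3 h. Each of the 4 RNA groups had 2 samples, and the labels do not say whether these were separate cultures. The pull-down was done on purified, annealed DNA of untreated HEK 293T cells, with 2 samples and their 2 inputs.

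Translation starts when eIF2 brings the initiator tRNA to the small ribosomal subunit, eIF4F binds the mRNA cap, and eIF1, eIF1A and eIF5 help to choose the start codon. Elongation then runs through eEF1A, which delivers aminoacyl-tRNAs, and eEF2, which moves the ribosome along. Many mRNAs for elongation factors and ribosomal proteins start with a C followed by pyrimidines, the 5′ terminal oligopyrimidine (TOP) motif, through which the kinase complex mTORC1 controls their translation. G-quadruplexes are structures of stacked guanines that can form in DNA and RNA.

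For expression the deposited tables gave 1 FPKM value per gene and condition, pooled over replicates, so no value of a single sample can be shown. The control of the 24 h table held the values of the 3 h control multiplied by 1.04 for nearly every gene, and that of the 72 h table by 0.968, with a spread of 0.000842 and 0.000854 (SD over 13455 and 13368 genes). The 3 comparisons therefore share a single control, and at 24 h and 72 h the effect of PDP cannot be told apart from that of time in culture. Because FPKM is relative to the sum of each library, a lower value can come from fewer transcripts per cell or from more RNA elsewhere, and fewer cells of a type and less RNA per cell cannot be told apart. A gene was called when its q-value in the authors' deposited table was under 0.05. Standard errors (SE) are implied by that table, as the log2 fold change divided by its test statistic. Their median over expressed members was 0.279, 0.280 and 0.288 at 3 h, 24 h and 72 h, against 0.372, 0.368 and 0.381 over all expressed genes. Among PAX2, EYA1, LIN28B, NEFM and VIM, genes known from HEK 293T cells, the lowest value was 0.868 FPKM, for PAX2. Of genes of other cell types, ALB, PTPRC and CDH5 stood at or near 0, and COL1A1, a collagen gene of fibroblasts, between 9.91 and 23.0 FPKM. NEFM, a neurofilament gene, stood at 150.7 FPKM with PDP at 72 h and 37.8 FPKM in the control, so the cells differed in more than these factors.

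With PDP the mRNAs of the translation factors differed little from the control at 3 h. Of 51 tested EIF genes with a role, 7 fell at 24 h (13.7%) and 1 rose (1.96%), beside 8.29% and 9.21% of all genes. Of 50 tested at 72 h, 8 rose (16.0%) and 2 fell (4.0%), both shares below those of all genes (19.0% and 12.8%). Elongation factors rose in 3 of 6 cases at 72 h, beside the same 19.0%. At 3 h, 0 of the 63 members tested were called in the authors' deposited table, beside 0.115% of all genes tested (0.108% higher and 0.00678% lower). At an unadjusted p under 0.05 in that table, the count was 1 of the 63 members, EIF3CL, against 282 of the 14751 genes tested. At 24 h, 2 members rose (3.17% of 63, beside 9.21% of all genes) and 8 fell (12.7%, beside 8.29%), by the calls of the authors' deposited table. At 72 h, 12 of 61 rose (19.7%, beside 19.0% of all genes) and 3 fell (4.92%, beside 12.8%) in the same table. The share called in either direction was 15.9% at 24 h, where 17.5% of all genes were called, and 24.6% at 72 h, where 31.8% were. The share that fell at 24 h was above that of all genes, and the other shares at 24 h and 72 h were near or below it.

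The median log2 fold change of the expressed members stood at -0.04, -0.21 and 0.14 at 3 h, 24 h and 72 h, beside -0.0036, -0.03 and 0.11 over all expressed genes. Relative to all expressed genes, the member medians stood at -0.04, -0.18 and 0.03, a gap that rescaling a whole library does not change. Negative values stood at 40, 42 and 22 of 60 members. Single members ranged between -0.39 and 0.74 at 3 h, between -0.88 and 1.60 at 24 h and between -1.14 and 1.20 at 72 h. EEF2K was called higher at both later times, and EIF1AX and EIF4A3 were called lower at both. A further 6 fell and 1 (EIF3CL) rose at 24 h without a call at 72 h. At 72 h, 11 rose and 1 (EEF2KMT) fell without a call at 24 h, and 39 members tested at every time were never called. The remaining 8 lacked a test at 1 time point or more and had no call.

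**Figure D1:**
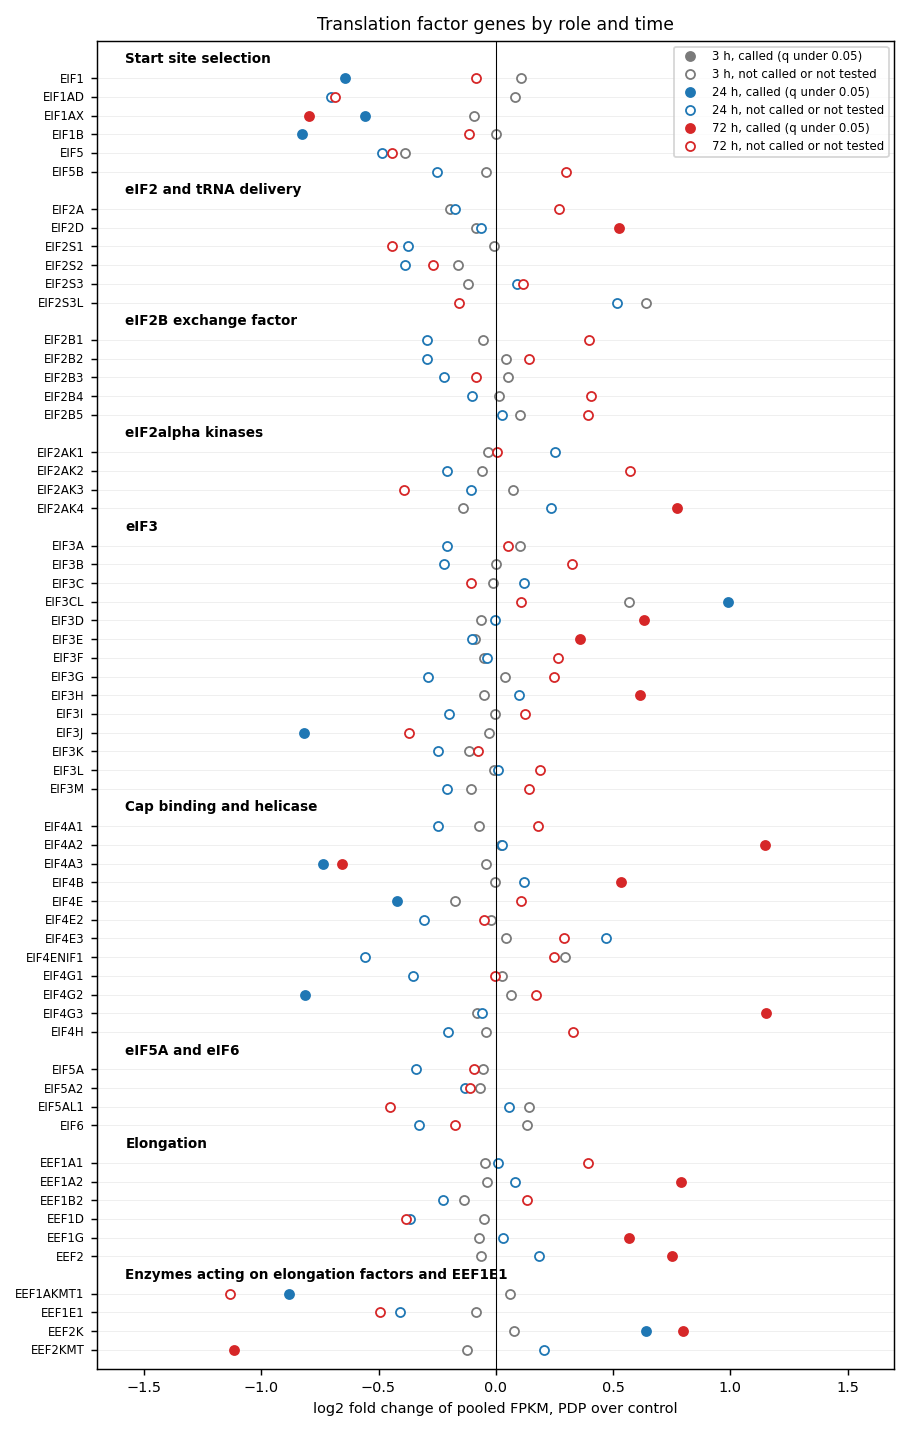
Log2 fold change of pooled FPKM, PDP over control (horizontal axis), for members grouped by role (rows), with 1 point per gene and time point and the called ones marked. At 24 h the 6 tested genes of start site selection all lie left of 0, and at 72 h elongation factors lie mostly to the right.

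**Figure D2:**
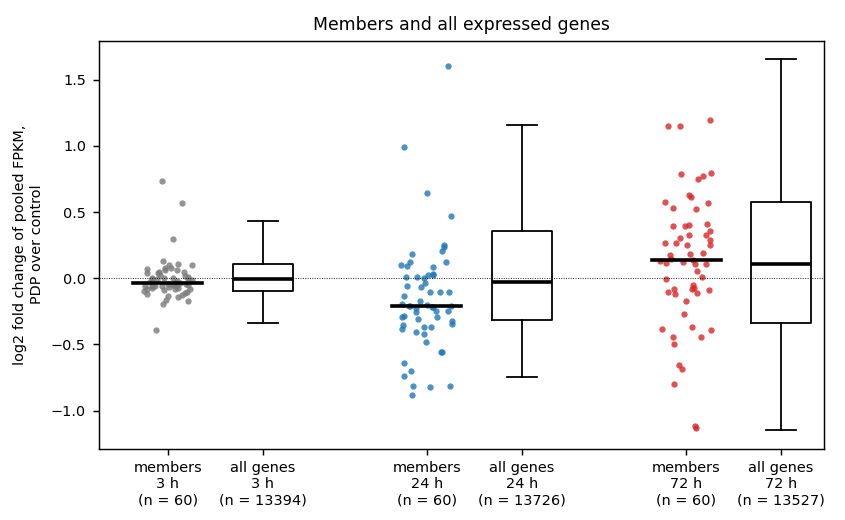
Log2 fold change of pooled FPKM, PDP over control (vertical axis), of expressed members beside all expressed genes at 3 h, 24 h and 72 h. The member medians were -0.04, -0.21 and 0.14, against -0.0036, -0.03 and 0.11 for all genes, with the widest gap at 24 h.

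The first bases of the transcripts are shown to illustrate a start tract described further on. The genes were picked by the tract and by their calls, so the sets do not show how often tract genes rose. Of the members with the tract, the 5 that rose at 72 h are shown, with EEF1A1, which was not called. EIF2A, EIF2S3, EIF2S3L, EIF3F, EIF3K and EIF3M also have the tract, had no call and are not shown. EEF1G, EEF2K, EIF2AK4 and EIF4G3 also rose at 72 h, have no such tract at the annotated start and are not shown. EIF3J, called lower at 24 h, has no such tract either and is left out of the second set. Sequences are 30 bases before and 20 from the annotated start, 5′ to 3′ on the coding strand, from RefSeq (GRCh38.p14), with the first 5 transcribed bases in capitals. The first set, with a C at the start and 4 pyrimidines (C or T) after it, is
EEF1A1 (chr6:73521013-73521062, minus strand): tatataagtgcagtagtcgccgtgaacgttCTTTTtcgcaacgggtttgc
EEF2 (chr19:3985444-3985493, minus strand): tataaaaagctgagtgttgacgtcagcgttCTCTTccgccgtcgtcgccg
EIF4A2 (chr3:186783547-186783596, plus strand): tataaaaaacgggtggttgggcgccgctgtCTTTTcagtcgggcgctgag
EIF4B (chr12:53006426-53006475, plus strand): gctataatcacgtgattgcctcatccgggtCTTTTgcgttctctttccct
EIF3D (chr22:36529147-36529196, minus strand): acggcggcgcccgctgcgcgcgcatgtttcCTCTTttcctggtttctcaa
EIF2D (chr1:206612446-206612495, minus strand): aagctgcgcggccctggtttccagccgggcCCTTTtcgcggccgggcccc
The second set, called lower at 24 h and with no such tract, is
EIF1 (chr17:41688855-41688904, plus strand): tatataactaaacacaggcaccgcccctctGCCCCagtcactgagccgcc
EIF1B (chr3:40309677-40309726, plus strand): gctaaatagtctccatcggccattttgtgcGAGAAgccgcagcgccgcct
EIF1AX (chrX:20141819-20141868, minus strand): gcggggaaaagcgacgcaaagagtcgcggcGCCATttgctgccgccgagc
EIF4A3 (chr17:80147109-80147158, minus strand): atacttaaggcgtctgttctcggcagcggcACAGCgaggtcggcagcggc
EIF4E (chr4:98929114-98929163, minus strand): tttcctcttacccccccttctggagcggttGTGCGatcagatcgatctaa
EIF4G2 (chr11:10807977-10808026, minus strand): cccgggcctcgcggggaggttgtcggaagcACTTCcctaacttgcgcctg

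At 3 h the changes were small and none was called. The largest increases among expressed members were those of EIF3J-AS1 (log2 fold change 0.74), EIF3CL (0.57), EIF4ENIF1 (0.29), EIF6 (0.13) and EIF1 (0.11). EIF3CL had 14.2 FPKM with PDP and 9.54 FPKM in the control, with p = 0.0002 and q = 0.114 in the authors' deposited table. It is a near-identical copy of the eIF3 subunit gene EIF3C, so reads may have been split between the pair. The largest decreases were those of EIF5 (-0.39), EIF2A (-0.19), EIF4E (-0.17), EIF2S2 (-0.16) and EIF2AK4 (-0.14). EIF5, the GTPase-activating protein of eIF2, had 129 FPKM with PDP and 169 FPKM in the control, with an SE of 0.36 that is close to the change itself.

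The factors of start site selection were lower at 24 h. Of the 6 tested genes, 3 fell at 24 h (EIF1, EIF1B and EIF1AX), beside 8.29% of all genes. At 72 h, 1 of the 6 fell (EIF1AX), beside 12.8% of all genes, which with so few genes is no clear difference. None rose at 24 h or 72 h, beside 9.21% and 19.0% of all genes. All 6 had a negative value at 24 h, and the median stood at -0.02, -0.60 and -0.28 at the 3 times. EIF1 keeps the scanning ribosome from starting at the wrong codon. Its level was 547 FPKM with PDP and 507 FPKM in the control at 3 h, 338 against 527 FPKM at 24 h, and 463 against 491 FPKM at 72 h. The level with PDP was thus below the control at 24 h and close to it at 3 h and 72 h. The log2 fold change at 24 h was -0.64 (SE 0.22), with q = 0.000908 in the authors' deposited table, the smallest q of that table, held by 6 members. EIF1B, a close paralog of EIF1, had 51.9 FPKM with PDP and 91.9 FPKM in the control at 24 h (log2 fold change -0.82, SE 0.22, and the same q in the authors' deposited table). At 72 h it had 79.0 FPKM with PDP and 85.6 FPKM in the control and was not called. EIF1AX, the X-linked gene of eIF1A, which works with eIF1 in scanning, was below its control at both later times. It had 128 FPKM with PDP and 137 FPKM in the control at 3 h, 96.4 against 142 FPKM at 24 h and 76.1 against 132 FPKM at 72 h. Its log2 fold changes at 24 h and 72 h were -0.56 (SE 0.20) and -0.80 (SE 0.19), with q = 0.00162 and q = 0.000393 in the authors' deposited tables. EIF5 (-0.49 at 24 h and -0.44 at 72 h) and EIF5B, the GTPase that joins the ribosomal subunits (-0.25 and 0.30), were not called. EIF1AD, counted in this list by its symbol, was not called either (-0.70 at 24 h and -0.69 at 72 h). Its values enter the medians above.

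Among eIF2, its exchange factor eIF2B and the kinases that phosphorylate eIF2α, EIF2D and EIF2AK4 were the only genes called, both higher at 72 h. That was 1 of 5 tested genes of eIF2 and tRNA delivery, 0 of 5 of eIF2B and 1 of 4 kinases, beside 19.0% of all genes. None fell at 72 h, beside 12.8%. None was called at 24 h, when 9.21% of all genes rose and 8.29% fell. With so few genes, these counts do not set the group apart from all genes. The subunits of eIF2 itself, EIF2S1, EIF2S2 and EIF2S3, were called at no time. EIF2S1, the α subunit that the kinases phosphorylate, had 99.9 FPKM with PDP and 100.3 FPKM in the control at 3 h, 80.5 against 104 FPKM at 24 h and 71.4 against 97.1 FPKM at 72 h, where q was 0.285 in the authors' deposited table. EIF2D, which can deliver tRNA without eIF2 and takes part in ribosome recycling, stood at 35.5 FPKM with PDP and 37.1 FPKM in the control at 24 h, and at 49.7 against 34.6 FPKM at 72 h. It was called at 72 h and not before, with a log2 fold change of 0.52 (SE 0.31) and q = 0.0333 in the authors' deposited table. None of the 5 eIF2B subunits was called, and their median stood at 0.04, -0.22 and 0.39 at the 3 times. The pair with the highest level, EIF2B2 and EIF2B5, had 47.7 and 52.9 FPKM with PDP at 72 h, against 43.2 and 40.2 FPKM in the control. Of the 4 kinases, EIF2AK4 (GCN2, which senses uncharged tRNA) was the one called. It had 10.1 FPKM with PDP and 11.2 FPKM in the control at 3 h, 13.7 against 11.6 FPKM at 24 h and 18.5 against 10.8 FPKM at 72 h. That last difference, 0.77 on the log2 scale (SE 0.33), had q = 0.00135 in the authors' deposited table. EIF2AK2 (PKR, activated by double-stranded RNA) had 19.2 FPKM with PDP and 12.9 FPKM in the control at 72 h and did not pass (q = 0.0616 in the authors' deposited table). EIF2AK1 (HRI, regulated by heme) and EIF2AK3 (PERK, of the endoplasmic reticulum) had 72 h values of 0.01 and -0.39.

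The 14 genes of eIF3, the large scaffold on the small ribosomal subunit, moved unequally. At 24 h EIF3CL rose (7.14% of 14, beside 9.21% of all genes) and EIF3J fell (7.14%, beside 8.29%). At 72 h EIF3D, EIF3E and EIF3H rose (21.4%, beside 19.0%), and these shares were near those of all genes. None fell at 72 h (beside 12.8%). The median of the 14 was -0.02, -0.15 and 0.16 at the 3 times. EIF3J, a loosely attached subunit that can leave the ribosome, had 93.0 FPKM with PDP and 94.8 FPKM in the control at 3 h, 56.0 against 98.5 FPKM at 24 h and 71.0 against 91.8 FPKM at 72 h. It was lowest at 24 h, with a log2 fold change of -0.82 (SE 0.29) and q = 0.000908 in the authors' deposited table. Its antisense neighbour EIF3J-AS1 had 5.78 FPKM with PDP and 1.91 FPKM in the control at 24 h, a log2 fold change of 1.60 with an SE of 1.45 that was not called. EIF3CL had 19.7 FPKM with PDP and 9.90 FPKM in the control at 24 h, and 9.95 against 9.24 FPKM at 72 h. Its 24 h change was 0.99 (SE 0.21), with q = 0.000908 in the authors' deposited table, whereas EIF3C had 16.1 FPKM with PDP and 14.8 FPKM in the control. EIF3CL made up 55.1% of the summed FPKM of the pair with PDP at 24 h and 40.2% in the control, and the origin of these reads is uncertain. EIF3D, a subunit that can itself bind the cap of some human mRNAs, had 155 FPKM with PDP and 155 FPKM in the control at 24 h, and 224 against 145 FPKM at 72 h. It had the greatest 72 h value in eIF3, 0.63 (SE 0.24), with q = 0.00163 in the authors' deposited table. EIF3H, a subunit of the outer octamer, had 282 FPKM with PDP and 184 FPKM in the control at 72 h (0.62, SE 0.33, q = 0.0287 in the authors' deposited table). EIF3E, which lies beside it in the complex, had 511 FPKM with PDP and 398 FPKM in the control (0.36, SE 0.21, q = 0.0382 in the authors' deposited table). The other 9 genes, EIF3C and the core subunits EIF3A and EIF3B among them, were called at no time.

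Among the factors that bind the cap and unwind the mRNA, paralogs of a family had different values. EIF4A1, the main RNA helicase of eIF4F, had 834 FPKM with PDP and 876 FPKM in the control at 3 h, 767 against 909.6 FPKM at 24 h and 963 against 849 FPKM at 72 h, and was never called. EIF4A2, its closest paralog, had 341 FPKM with PDP and 336 FPKM in the control at 3 h, 355 against 349 FPKM at 24 h and 722 against 325 FPKM at 72 h. It was near the control at 3 h and 24 h and well above it at 72 h, by 1.15 on the log2 scale (SE 0.28), with q = 0.000393 in the authors' deposited table. EIF4A2 made up 42.9% of the summed FPKM of the pair with PDP at 72 h and 27.7% in the control. EIF4A3, the helicase of the exon junction complex, went the other way: 47.2 FPKM with PDP and 78.8 FPKM in the control at 24 h, and 46.7 against 73.5 FPKM at 72 h. Its log2 fold changes were -0.74 (SE 0.21) and -0.66 (SE 0.22), with q = 0.000908 and q = 0.000393 in the authors' deposited tables. The differences between paralogs were described and not tested.

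The eIF4G scaffolds, which join the cap complex to the ribosome, showed the same kind of divergence. EIF4G1, the main one, had 227 FPKM with PDP and 223 FPKM in the control at 3 h, 181 against 231 FPKM at 24 h and 216 against 216 FPKM at 72 h, and was not called (q = 0.065 at 24 h in the authors' deposited table). EIF4G3, its paralog, had 28.0 FPKM with PDP and 29.2 FPKM in the control at 24 h and 60.5 against 27.2 FPKM at 72 h. It rose at 72 h by 1.15 on the log2 scale (SE 0.41), with q = 0.000393 in the authors' deposited table, and its share of the pair was 21.9% with PDP and 11.2% in the control. EIF4G2 (DAP5), a scaffold that lacks the eIF4E-binding site, had 352 FPKM with PDP and 337 FPKM in the control at 3 h, 199 against 349.8 FPKM at 24 h and 367 against 326 FPKM at 72 h. It was called at 24 h and at no other time, with a log2 fold change of -0.82 (SE 0.33) and q = 0.000908 in the authors' deposited table. EIF4E, the protein that binds the cap, had 94.4 FPKM with PDP and 126 FPKM in the control at 24 h and 127 against 118 FPKM at 72 h. Its 24 h value, -0.42 (SE 0.23), passed with q = 0.0444 in the authors' deposited table, close to the threshold. EIF4B, which stimulates the helicase, had 306 FPKM with PDP and 281 FPKM in the control at 24 h, and 379.8 against 262 FPKM at 72 h (0.53, SE 0.27, q = 0.0144 in the authors' deposited table). EIF5A, the hypusine-bearing factor that helps stalled ribosomes on, and EIF6, which keeps the large subunit apart, were not called. EIF5A had 447 FPKM with PDP and 567 FPKM in the control at 24 h, and EIF6 had 61.7 against 77.3 FPKM.

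Of the 6 elongation factor genes, EEF1A2, EEF1G and EEF2 rose at 72 h, none was called at 3 h or 24 h, and the median was -0.06, 0.02 and 0.48 at the 3 times. Their summed FPKM made up 1.02% of all FPKM with PDP at 3 h, 1.16% at 24 h and 1.30% at 72 h, against 1.03% in the control at each time. EEF1A1, which brings aminoacyl-tRNA to the ribosome, was the highest of all members. It had 3648 FPKM with PDP and 3764.5 FPKM in the control at 3 h, 3942 against 3913 FPKM at 24 h and 4785 against 3645 FPKM at 72 h. The last value lay 0.39 above the control on the log2 scale (SE 0.24) and did not pass, with q = 0.0522 in the authors' deposited table. EEF1A2, the paralog otherwise typical of muscle and neurons, had 114 FPKM with PDP and 117 FPKM in the control at 3 h, 129 against 122 FPKM at 24 h and 197 against 114 FPKM at 72 h. It rose at 72 h by 0.79 (SE 0.19), with q = 0.000393 in the authors' deposited table, and made up 3.95% of the EEF1A pair with PDP and 3.03% in the control.

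EEF2, the translocase, had 1009.7 FPKM with PDP and 1054 FPKM in the control at 3 h, 1244 against 1094 FPKM at 24 h and 1719 against 1021 FPKM at 72 h. Its 72 h change was 0.75 (SE 0.42), with q = 0.000393 in the authors' deposited table. That change is under 2 SE although its q is the smallest of the table, so the implied SE and the deposited q do not track each other closely. The exchange complex that recharges eEF1A was uneven. EEF1G, its γ subunit, had 1661 FPKM with PDP and 1122 FPKM in the control at 72 h (0.57, SE 0.22, q = 0.00217 in the authors' deposited table). EEF1B2, the exchange subunit, had 567 FPKM with PDP and 517 FPKM in the control, and EEF1D, a second exchange subunit, had 197 against 256 FPKM. EEF1D was thus the elongation factor with a negative value at 72 h (-0.38, SE 0.26), and it was not called (q = 0.0776 in the authors' deposited table).

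The enzymes that modify the elongation factors changed in both directions. EEF2K, the kinase that phosphorylates eEF2 and so slows elongation, had 9.53 FPKM with PDP and 9.04 FPKM in the control at 3 h, 14.6 against 9.38 FPKM at 24 h and 15.2 against 8.75 FPKM at 72 h. Its log2 fold changes at 24 h and 72 h were 0.64 (SE 0.32) and 0.80 (SE 0.38), with q = 0.0096 and q = 0.0148 in the authors' deposited tables. EEF2K and its substrate EEF2 were thus both above their controls at 72 h. EEF1AKMT1, a methyltransferase of eEF1A, had 3.58 FPKM with PDP and 6.58 FPKM in the control at 24 h, and 2.79 against 6.14 FPKM at 72 h. The first difference passed (-0.88, SE 0.43, q = 0.0188) and the second did not (-1.14, SE 0.61, q = 0.0567) in the authors' deposited tables. EEF2KMT, which methylates eEF2, had 14.6 FPKM with PDP and 12.6 FPKM in the control at 24 h, and 5.44 against 11.8 FPKM at 72 h. It fell at 72 h by 1.12 on the log2 scale (SE 0.57), with q = 0.0176 in the authors' deposited table. Both methyltransferases had levels under 15 FPKM and SE values above the members' median.

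**Figure D3:**
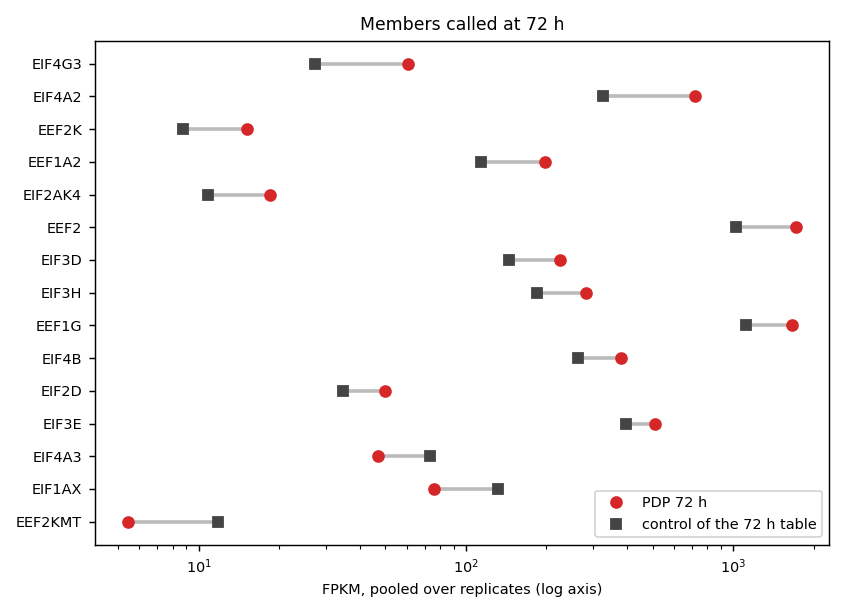
Pooled FPKM at 72 h (horizontal log axis) of the 15 members called at 72 h (rows), with 1 point for PDP and 1 for the control per gene. EEF2, with 1719 FPKM with PDP and 1021 FPKM in the control, and EEF1G lie at the high end and EEF2KMT at the low end.

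Members whose mRNAs are textbook TOP mRNAs (10 genes) had a median of -0.05 at 3 h, 0.02 at 24 h and 0.46 at 72 h. At 72 h, 6 of the 10 rose (60.0%, beside 19.0% of all genes), none fell (12.8% of all genes did) and 9 had a positive value. Among the 53 other members with a role, the medians were -0.02, -0.22 and 0.11, with 6 of 50 tested called higher and 3 lower at 72 h, both shares below those of all genes. At 24 h the 10 TOP genes had no call. Among the others 2 of 51 were called higher (3.92%, beside 9.21% of all genes) and 8 lower (15.7%, beside 8.29%). A second grouping, chosen after the values were seen, used the annotated start alone, as in the sequences printed above. Promoters were found in RefSeq for 57 of the 69 members, and 12 of these (21.1%) had a C at the start with 4 pyrimidines after it, against 4.04% of 27305 promoters and 4.6% of the 15843 of protein-coding genes. The 12 were EEF1A1, EEF2, EIF2A, EIF2D, EIF2S3, EIF2S3L, EIF3D, EIF3F, EIF3K, EIF3M, EIF4A2 and EIF4B. The 11 of them that were expressed had medians of -0.06, -0.0013 and 0.39 at the 3 times, against -0.01, -0.25 and 0.12 for the 37 expressed members with a promoter and no tract. At 72 h, 5 of 11 with the tract rose (45.5%) and none fell, and without it 4 of 38 rose (10.5%) and 2 fell (5.26%). Of all genes 19.0% rose and 12.8% fell at 72 h, so members without the tract lay below both shares. At 24 h none of 12 with the tract was called, and without it 1 of 39 rose (2.56%) and 7 fell (17.9%).

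The same split was made over all protein-coding genes. With the tract, 27.8% of 561 genes tested at 72 h were called higher and 9.98% lower (median 0.25), against 19.2% and 15.2% of 9700 genes without it (median 0.06). Ribosomal protein genes with a tract rose in 32 of 44 cases. Leaving out these and the translation factors, the genes with a tract stood at 23.5% higher and 11.1% lower of 506 (median 0.17). At 24 h the medians were -0.03 with the tract and -0.07 without it. With the tract, 7.32% were called higher and 6.07% lower at 24 h, against 8.76% and 10.2% without it. Beside such shares, no call among 12 members with the tract at 24 h says little. Of the textbook TOP genes, EEF1A1, EEF2, EIF3F and EIF4B have the tract at the annotated start, and EEF1B2 and EEF1G do not. No promoter was found for EEF1A2, EEF1D, EIF3E and EIF3H. The annotated start alone thus does not mark every textbook TOP mRNA. The TOP list holds all 6 elongation factors, so its 72 h result is not separate from theirs. No difference between groups was tested.

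**Figure D4:**
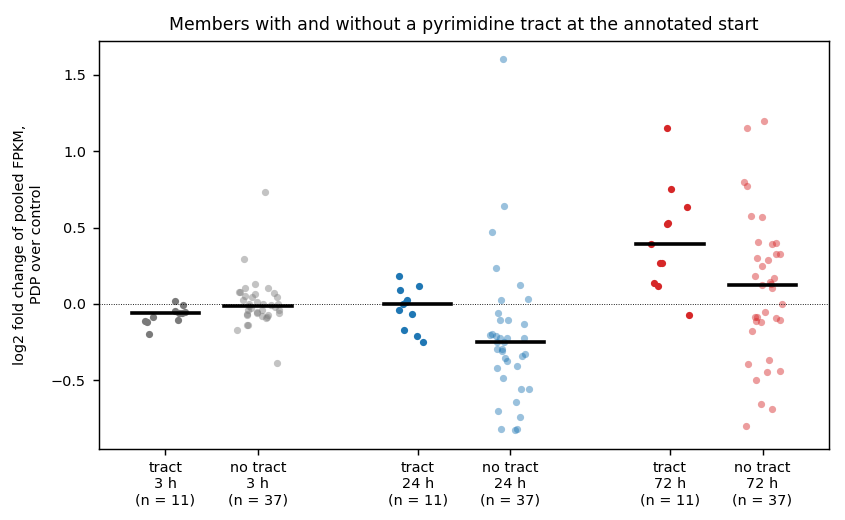
Log2 fold change of pooled FPKM, PDP over control (vertical axis), of expressed members with and without a pyrimidine tract at the annotated start, at 3 h, 24 h and 72 h, with 1 point per gene. At 72 h, 10 of the 11 genes with the tract lie above 0, with a median of 0.39 against 0.12.

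The partners of these factors were read from 5 lists, in which no gene was called at 3 h. For comparison, 9.21% of all genes tested rose and 8.29% fell at 24 h, and 19.0% rose and 12.8% fell at 72 h. Of 13 tested cap and poly(A) partners, 2 fell at 24 h (15.4%), and 4 rose (30.8%) and 2 fell (15.4%) at 72 h. The poly(A)-binding protein gene PABPC1 had 944 FPKM with PDP and 497 FPKM in the control at 72 h (log2 fold change 0.93), and the helicase gene DDX3X had 370.3 against 252 FPKM (0.55). PAIP2, an inhibitor of poly(A)-binding protein, had 126 FPKM with PDP and 77.3 FPKM in the control (0.71). PDCD4, an inhibitor of eIF4A, had 49.9 FPKM with PDP and 90.0 FPKM in the control (-0.85, q = 0.00268 in the authors' deposited table). The eIF4E-binding proteins, which block eIF4E until mTORC1 phosphorylates them, were outside the symbol rule. EIF4EBP1 had 126 FPKM with PDP and 100.1 FPKM in the control at 72 h (0.34, q = 0.0614 in the authors' deposited table). EIF4EBP2 had 39.0 FPKM with PDP and 37.5 FPKM in the control at 24 h and 19.8 against 35.0 FPKM at 72 h. It fell at 72 h by 0.82 on the log2 scale (SE 0.20), with q = 0.000393 in the authors' deposited table. EIF4EBP3 was listed at 0 in every control and was not tested.

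Of 6 tested termination and recycling genes, 3 fell at 24 h and 3 at 72 h (8.29% and 12.8% of all genes fell), none rose, and the medians were -0.49 and -0.32. ETF1, the release factor that reads stop codons, had 62.1 FPKM with PDP and 89.8 FPKM in the control at 24 h and 63.3 against 83.7 FPKM at 72 h. DENR, which acts in recycling and reinitiation, had 69.4 FPKM with PDP and 105 FPKM in the control at 24 h, a log2 fold change of -0.60. ABCF1 fell at 24 h (-0.62) and at 72 h (-0.39), and MCTS1 fell at 72 h (-0.49). Of 10 genes of mTORC1 signalling, none was called at 24 h (2 had an unadjusted p under 0.05 in the authors' deposited table), and 4 rose (40.0%, beside 19.0% of all genes) and 1 fell (10.0%, beside 12.8%) at 72 h. RPTOR, the subunit that binds substrates, had 23.5 FPKM with PDP and 13.7 FPKM in the control at 72 h, and RHEB, its activating GTPase, had 171 against 114 FPKM. RPS6 had 1604 FPKM with PDP and 1059 FPKM in the control, and AKT1S1, an inhibitory subunit, had 22.8 against 40.7 FPKM. Of 6 mitochondrial translation factors, GFM1 fell at 24 h (-0.66) and TSFM at 72 h (-0.98).

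The list of the eIF2 phosphatase and targets of ATF4, a transcription factor made when eIF2α is phosphorylated, had 3 of 11 genes higher (27.3%) and 1 lower (9.09%) at 24 h. At 72 h it had 2 higher and 2 lower (18.2% each), near the shares of all genes. PPP1R15A (GADD34), which directs the phosphatase to eIF2α, had 58.2 FPKM with PDP and 6.56 FPKM in the control at 72 h. Its log2 fold change was 3.15 (SE 0.23), with q = 0.000393 in the authors' deposited table. VLDLR, a receptor gene among the ATF4 targets, had 8.98 FPKM with PDP and 1.86 FPKM in the control at 72 h, a log2 fold change of 2.27. ATF4 itself had 539 FPKM with PDP and 583 FPKM in the control at 72 h, and its target PSAT1, of serine synthesis, had 104 against 159 FPKM. At 24 h CHAC1 (0.78) and TRIB3 (0.53) rose and PPP1R15B fell (-0.44), and none of these was called at 72 h. DDIT3 had 28.0 FPKM with PDP and 6.05 FPKM in the control at 72 h. Its log2 fold change of 2.21 (SE 0.99) was not called (q = 0.0519 in the authors' deposited table). The list's median at 72 h was 0.04.

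**Figure D5:**
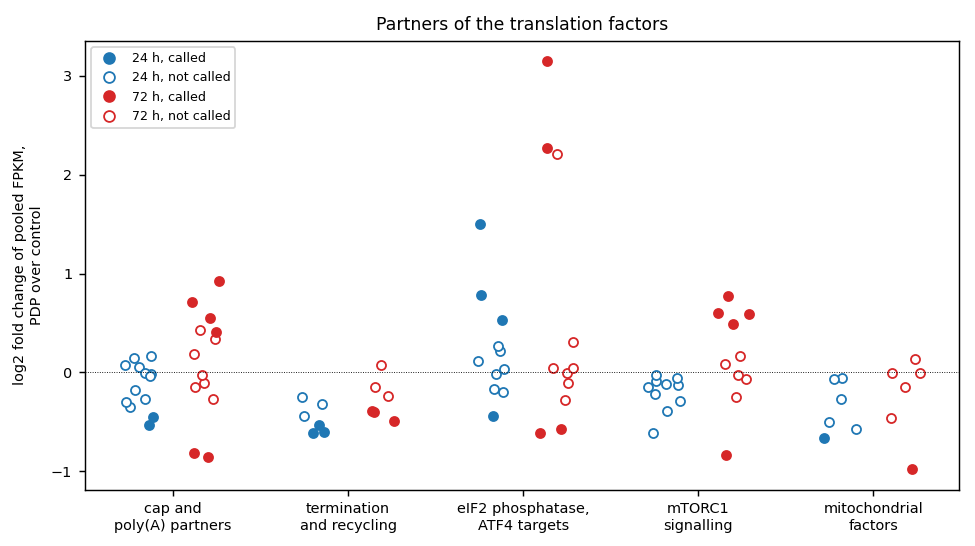
Log2 fold change of pooled FPKM, PDP over control (vertical axis), of the genes in 5 partner lists (horizontal axis) at 24 h and 72 h, with 1 point per gene. Termination and recycling genes lie mostly below 0 at both times (medians -0.49 and -0.32), and PPP1R15A stands at 3.15 at 72 h.

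Pull-down peaks were read over gene loci as the expression tables give them (GRCh38). The members lay in 66 loci, of which 35 held a peak centre (53.0%). Of the 60 loci with an expressed member, 35 (58.3%) held one, against 55.6% of 10615 loci of expressed genes, so the shares were close. There were 16.6 peaks per Mb of these member loci and 19.6 per Mb over all. Loci that hold several genes are long, and peaks followed length. Of loci with an expressed member, 1 of 4 under 10 kb had a peak (8.86% of all such loci did) and 3 of 8 of 10 to 20 kb (26.2% of all). At 20 to 50 kb the count was 3 of 16 (46.2% of all), at 50 to 100 kb it was 10 of 12 (71.0% of all) and over 100 kb it was 18 of 20 (91.8% of all). The members' shares thus lay above those of all loci in 3 length classes and below in 2. Of 7 loci that hold a single gene, an expressed member, 2 had a peak (28.6%, against 36.0% of 4331 loci of expressed genes), those of EEF1A2 and EIF3D. The EEF1A2 peak had a score of 30.15 in the authors' peak list, whose unit is not stated. Members in a locus with a peak rose at 72 h in 10 of 35 cases and fell in 1, and those in a locus with no peak rose in 2 of 26 and fell in 2. At 24 h, 2 of 36 members with a peak fell, against 6 of 27 with none. Over all genes tested at 72 h, 18.1% with a peak in the locus and 20.5% with none were called higher. At 24 h, 6.57% with a peak and 10.9% with none were called lower. The members' loci with a peak had a median length of 105 kb, against 20.6 kb for those with none, so peak and length cannot be told apart here.

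A G-quadruplex motif, 4 runs of at least 3 G separated by 1 to 7 bases of any kind on either strand, was found in the promoters (250 bases before to 50 after the start) of 11 of 57 members. That is 19.3%, against 24.1% of all promoters and 30.4% of those of protein-coding genes. Matches are shown for 3 members that rose and for EIF3J, which fell, so that both directions can be seen, with the match in capitals and 10 bases on either side, on the coding strand (a match in C is one in G on the other strand).
EEF2K (chr16:22206244-22206281, plus strand): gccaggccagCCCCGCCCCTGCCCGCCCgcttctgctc
EIF4A2 (chr3:186783350-186783389, plus strand): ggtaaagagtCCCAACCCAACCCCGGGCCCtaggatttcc
EIF2D (chr1:206612577-206612622, minus strand): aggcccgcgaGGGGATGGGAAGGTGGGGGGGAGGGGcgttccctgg
EIF3J (chr15:44536926-44536975, plus strand): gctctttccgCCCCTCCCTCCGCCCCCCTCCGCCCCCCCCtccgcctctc
The matches in EEF2K, EIF4A2, EIF2D and EIF3J begin 24, 217, 147 and 211 bases before the start, so that of EEF2K lies next to the start and the others far from it. The 4 members shown are all those with a match and a call. Of 10 tested members with a match, 1 rose and 1 fell at 24 h, beside 9.21% and 8.29% of all genes. At 72 h, 3 of the 10 rose and none fell, beside 19.0% and 12.8%. These counts are too small to tell apart from the shares of all genes. A match in letters does not show that a structure forms. TGATGNAA, the core of the element bound by ATF4 with C/EBP partners, was found on either strand in none of the 57 promoters. It was found in 3.67% of all promoters and in 2.53% of those of protein-coding genes, so none of 57 says little. ACGTG, the core of the E-box and of the element read in the unfolded protein response, was found on either strand in 22 (38.6%). That is against 21.6% of all promoters and 23.7% of those of protein-coding genes.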

How the data were processed

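The submitters' processing notes name HISAT2 2.0.5, Cufflinks 2.2.1 and GRCh38.p7, and also Bowtie2 2.2.9, HOMER 4.9.1, Trim Galore 0.4.4, Picard and SAMtools 1.3.1. Their roles and settings are not given in the sources used here. The authors' deposited FPKM are pooled over the replicates of a condition, so depth per sample is unknown. Calls rest on the q-value, and the unadjusted counts on the p-value, that the authors deposited for every gene tested. The implied SE used the test statistic (a score) that the authors deposited, and their deposited peak score described peaks. Each log2 fold change is PDP FPKM over control FPKM, with no pseudocount. Groups came from the labels. No sample label gives a control at 24 h or 72 h.

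Members and lists were chosen with earlier results of these data known. Named genes were, per role list, up to 4 called members by size of change (or the 2 of highest control FPKM), the 5 largest changes in each direction at 3 h, textbook factors, the EIF4EBP genes, and up to 4 called genes per partner list. EIF3E, EIF4B, EIF3C, EIF1AY, EIF1AD, EIF5B, EIF2S3, EEF1B2, EEF1D and the other kinases were added after their values were seen. So were ATF4, TRIB3, PPP1R15B, DDIT3, the start tract, the copies and the snoRNA hosts. Sequences are RefSeq GRCh38.p14, matched by symbol. Alternatives were a pseudocount, scaling, filters and thresholds. The counting and medians were tested on simulated data. Scripts ran in Python 3.11.15 with pandas 2.3.3, NumPy 2.4.6, Matplotlib 3.10.9 and SciPy 1.17.1. Of the cell line's marker genes, 1 is not reported here.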

Additional observations from a re-analysis of the deposited data

How the results depend on the processing

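No paired analysis was possible because the tables hold 1 pooled value per condition, and for the same reason no replicate could be left out in turn. With q under 0.01 in the authors' deposited tables, members called higher at 72 h numbered 7 in place of 12, which follows from the stricter threshold. Settings added after seeing the data used an unadjusted p under 0.05 in place of q: 1 member was then higher at 3 h in place of 0, 14 were lower at 24 h in place of 8, and 5 were lower at 72 h in place of 3. With near-identical copies left out, 1 member was higher at 24 h in place of 2, since EIF3CL was the one removed. The other counts of called members, under 29 planned and 8 added settings, stayed within 1.5 times. Scaling both conditions to equal FPKM sums added 0.05, 0.17 and -0.10 to every log2 value at 3 h, 24 h and 72 h, so that the members' median was 0.01, -0.04 and 0.04; all genes shift by the same amount. Over all settings the members' median ranged between -0.04 and 0.01 at 3 h, -0.21 and -0.04 at 24 h, and 0.03 and 0.14 at 72 h. Of 25 calls of named genes, all kept their direction under that scaling, a pseudocount of 1 and subtraction of the median of all genes, and 17 passed at q under 0.01. Unknown depth and 2 samples per group limit what could be called.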

Other observations

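The pseudogene symbols of these families, left out by the symbol rule, were described separately. Of 136, 13 were expressed at 24 h, with a median log2 fold change of 0.82, and the authors' deposited table called 7 of the 19 tested higher (36.8%, beside 9.21% of all genes) and 0 lower (beside 8.29%; 8 had an unadjusted p under 0.05). At 3 h and 72 h the medians were 0.50 and 0.22. The EEF1A1 pseudogenes summed to 148 FPKM with PDP and 86.6 FPKM in the control at 24 h, when EEF1A1 itself had 3942 against 3913 FPKM. Such copies can take reads of their parent genes.

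RefSeq places small nucleolar RNA genes inside 9 members with a role, among them EIF4A2 with 5, EIF4A1 with 3, and EEF2, EIF4G2 and EIF2AK4. The medians of these 9 were -0.06, -0.23 and 0.17 at the 3 times, against -0.04, -0.20 and 0.13 for the 54 other members with a role. At 72 h, 3 of the 9 rose (33.3%), against 9 of 51 (17.6%), beside 19.0% of all genes.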
